A study of Mus musculus with 16 samples.

Results

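Axonemal dyneins, radial spokes and the other structural proteins of motile cilia were measured in epididymal adipose tissue of mice. The gene set was chosen by symbol alone, as every gene of the array with a name of the *Dnah*, *Dnai*, *Cfap*, *Rsph*, *Drc* or *Tekt* series, together with a few axonemal genes fixed by name. It held 62 genes, each with 1 transcript cluster, of 19505 named genes and 22206 transcript clusters on the array. Of 8 genes that the rule fixed by name, 6 were found by symbol, and the others were not analysed here.

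A motile cilium beats because dynein motors, held in outer and inner arms along the doublet microtubules, slide neighbouring doublets against each other. Radial spokes, nexin-dynein links and the central apparatus turn this sliding into a regular beat, and tektins with other luminal proteins stiffen the doublets. Beating cilia are known from airways, brain ventricles, the oviduct and, in males, the efferent ducts between testis and epididymis, and the sperm flagellum is built on the same plan. Transcription of these genes in multiciliated cells is known to depend on RFX factors, which bind the X-box, and on a forkhead factor.

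The arrays came from 16 male C57BL/6 pups (substrain NCrSlc in the methods) at 16.5 wks of age, 1 array per pup and 4 pups per group. The pups labelled UN-RG, with TU or Veh, were born to dams whose energy intake had been restricted to 60% during pregnancy, and were then nursed in litters of 4 to give rapid infantile growth. NN-TU and NN-Veh pups came from dams fed freely and from litters of 8. TU pups received tauroursodeoxycholic acid, a hydrophilic bile acid that eases stress of the endoplasmic reticulum, by mouth at 0.5 g/kg per day from 11 to 16.5 wks, and Veh pups received the vehicle, distilled water. All pups of all 4 groups were fed a high-fat diet from 9 wks. In the UN-RG model the restriction of the dam and the small litter cannot be told apart. The labels do not tie pups to dams, so that the p-values measure the spread between these 16 pups. The tissue was a block of whole fat pad, in which fewer cells of a type and less RNA per cell cannot be told apart.

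All levels are log2 values of the normalized intensity of a transcript cluster, and differences between groups are log2 fold changes. Array medians over all clusters lay between 6.997 and 7.156. Antigenomic controls, probes with no match in the mouse genome, give a background level, and their median was 6.27 to 6.85 and their 95th percentile 9.64 to 10.5 on the 16 arrays. Markers of adipocytes had a median level of 16.77 to 16.94 in UN-RG-TU, 16.53 to 16.64 in UN-RG-Veh, 16.70 to 17.18 in NN-TU and 16.29 to 16.70 in NN-Veh, far above that background on every array. On 1 array of each group the genes of motile cilia stood far above the other 3, and these arrays enter every comparison. Values of a gene are given by replicate number, 13 to 16 in UN-RG-TU, 09 to 12 in UN-RG-Veh, 05 to 08 in NN-TU and 01 to 04 in NN-Veh.

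A sequence feature that the rule did not use stood in some of the promoters of these genes. RefSeq promoters (build GRCm38.p6, 250 bases before to 50 after the start site) were matched for 54 of the 62 genes, 64 promoters in all, and searched on both strands for the X-box, the half-sites GTTNCC and GGNAAC with AT between them. This motif is its own reverse complement, and mismatches were counted outside N. A match with up to 2 mismatches stood in 20 of the 64 promoters (31.2%), and in 3.5% of the 32851 promoters of the mouse table. With up to 3 mismatches it stood in 32 (50%) and in 13%. Of the 20 matches with up to 2 mismatches 15 belong to genes whose level ranged over more than 2 between arrays (log2), and 9 of these are shown as examples, with 5 bases on either side in lower case and the X-box match in capitals, 5′ to 3′ on the strand of the gene. They lie at chr8:110266951-110266974 (plus strand) for *Hydin*, chr2:21205359-21205382 (minus) for *Enkur*, chr2:145934771-145934794 (plus) for *Cfap61*, chr8:95055098-95055121 (plus) for *Drc7*, chr11:72361879-72361902 (minus) for *Tekt1*, chr16:44394767-44394790 (plus) for *Cfap44*, chr17:46144188-46144211 (minus) for *Rsph9*, chr1:172521106-172521129 (plus) for *Cfap45* and chr3:106001499-106001522 (minus) for *Pifo*.
Hydin: ctgcgGTTGCTGTGGCAACagatg
Enkur: caactGTTTCCTTAGCAACcacgt
Cfap61: gcgtcGTTTCCTTAGCAACtgtgt
Drc7: ccgctGTTACCATAGAGACaagta
Tekt1: gtccgGTTGCCATAGAGACcgcag
Cfap44: gggacGTTGCTATGGCAACcgcag
Rsph9: tcaggGTCTCCATGGAGACagctt
Cfap45: cttggGTTGCTATGGTAACgcgtc
Pifo: gttccGTTCCCTTGGCAACgtagt

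The 6 not shown are those of *Cfap126*, whose centre lies at −75 from the start site, *Cfap161* (−40), *Cfap206*, *Cfap52*, *Cfap57* and *Cfap221*. In *Cfap44*, *Cfap45* and *Pifo* the match differed from the X-box at 1 base and in the others shown at 2. Of its 32 promoters with up to 3 mismatches, 23 (71.9%) had the centre of the match within 50 bases of the start, against 35.7% of the 4267 promoters with such a match in the whole table. The 100 bases that end just before the start site are shown for a gene of the central apparatus and for a pair of genes whose match has a single mismatch, at chr8:110266877-110266976 for *Hydin*, chr16:44394699-44394798 for *Cfap44* and chr1:172521030-172521129 for *Cfap45*, all on the plus strand.
Hydin: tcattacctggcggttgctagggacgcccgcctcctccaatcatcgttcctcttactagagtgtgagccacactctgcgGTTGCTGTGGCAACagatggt
Cfap44: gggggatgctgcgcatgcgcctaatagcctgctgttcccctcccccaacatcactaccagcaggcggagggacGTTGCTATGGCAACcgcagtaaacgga
Cfap45: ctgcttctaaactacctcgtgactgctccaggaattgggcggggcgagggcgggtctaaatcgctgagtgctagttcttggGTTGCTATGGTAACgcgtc

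The forkhead motif TGTTTAC, searched on both strands, stood in 4 of the 64 promoters (6.25%) and in 3.65% of all. A match is a description of these letters in this window and not of binding. Of 39 promoters of genes whose level ranged over more than 2 between arrays, 15 (38.5%) held an X-box match with up to 2 mismatches, and of the other 25 promoters 5 (20%) did, those of *Cfap20*, *Drc1*, *Cfap298*, *Cfap20dc* and *Cfap97d2*. With up to 3 mismatches the shares were 20 of 39 (51.3%) and 12 of 25 (48%), and for the forkhead motif 2.56% and 12%. No test was made of these differences.

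**Figure D1:**
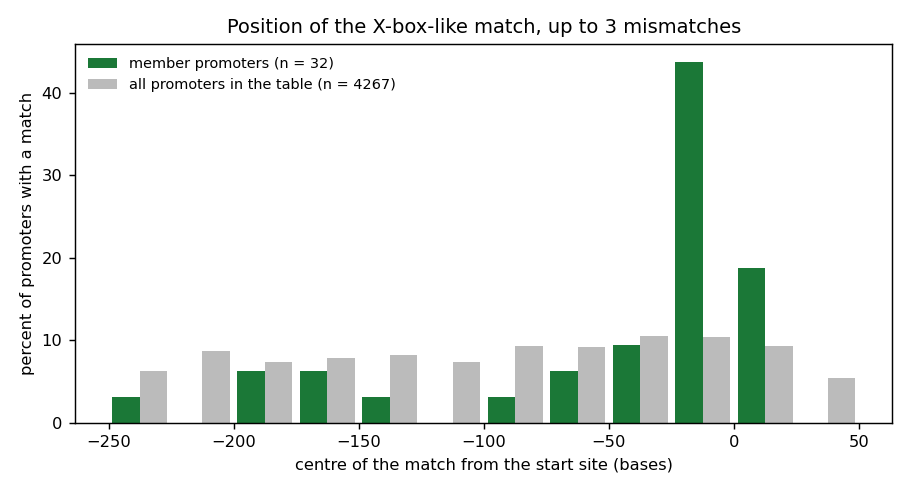
Position of the X-box-like match with up to 3 mismatches. The x axis gives the distance of its centre from the start site in bases, in bins of 25 bases, and the y axis the percent of promoters with a match, for 32 promoters of the motile cilia genes and for 4267 of the whole table. Of the motile cilia promoters 23 had it within 50 bases of the start.

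*Rsph4a*, a protein of the radial spoke head, had the widest range, 6.36 on the log2 scale or 82.2-fold in intensity. Its levels were 6.46, 11.14, 6.43 and 6.46 in UN-RG-TU, 6.18, 6.84, 6.49 and 10.33 in UN-RG-Veh, 6.66, 6.54, 6.28 and 12.32 in NN-TU, and 6.26, 12.54, 6.52 and 6.74 in NN-Veh. A single array of each group was high, UN-RG-TU 14, UN-RG-Veh 12, NN-TU 08 and NN-Veh 02, and the other 12 arrays lay between 6.18 and 6.84, close to the antigenomic median. The mean of a group therefore carried an SD as large as 3.02. It was 7.62 ± 2.35 in UN-RG-TU, 7.46 ± 1.93 in UN-RG-Veh, 7.95 ± 2.92 in NN-TU and 8.02 ± 3.02 in NN-Veh (SD, n = 4 each).

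The same 4 arrays had the highest median over the 62 genes. This median was 5.32, 6.56, 5.33 and 5.11 in UN-RG-TU, 5.17, 5.31, 5.30 and 6.40 in UN-RG-Veh, 5.11, 5.24, 5.09 and 6.92 in NN-TU, and 5.18, 7.50, 5.49 and 5.30 in NN-Veh. The 4 arrays were the highest also by the mean, after centring each array on its median and after quantile normalization. As a count of genes, 28 stood more than 1 above the median of their own group on UN-RG-TU 14, 26 on UN-RG-Veh 12, 39 on NN-TU 08 and 38 on NN-Veh 02. Outside these arrays 1 gene did so on NN-Veh 03, *Dnah8*, and 0 on each of the others. Above the antigenomic median stood 30 genes on UN-RG-TU 14, 28 on UN-RG-Veh 12, 40 on NN-TU 08 and 45 on NN-Veh 02, and 11 to 17 on each of the other 12 arrays. For neither count was the share of all clusters determined.

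**Figure D2:**
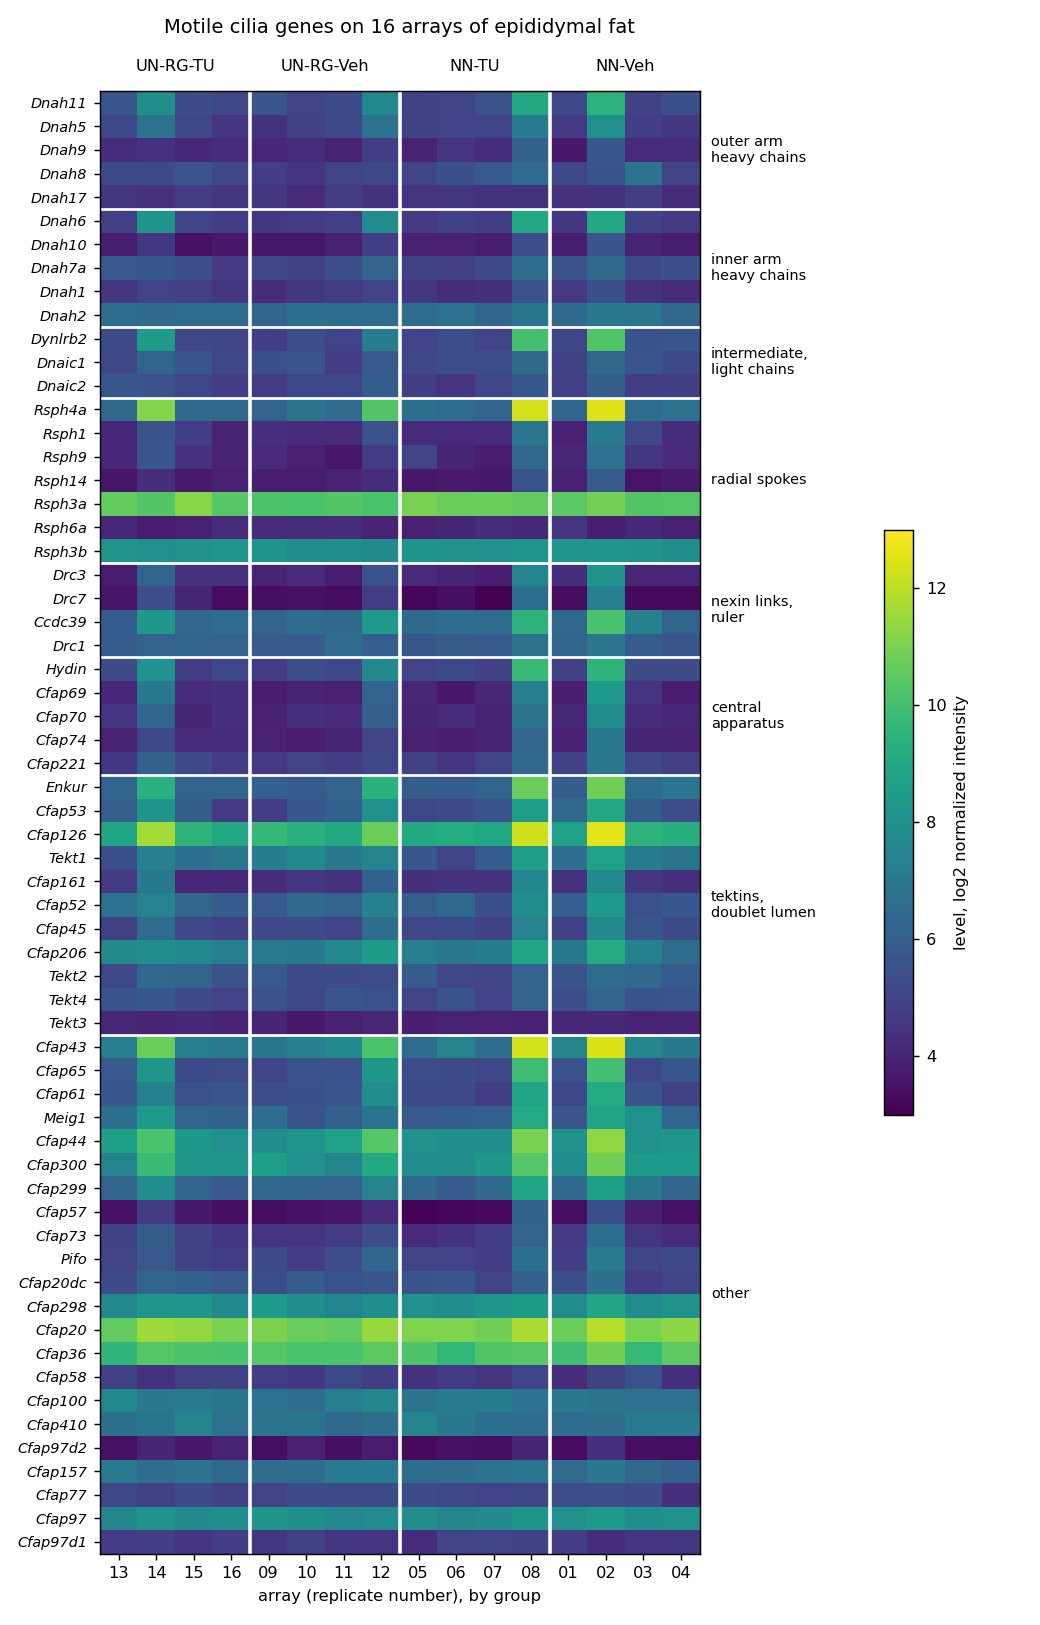
Level of each of the 62 genes (rows, by role in the axoneme) on each of the 16 arrays (columns, by group and replicate number), as log2 normalized intensity from 3 (dark) to 13 (bright). Arrays 14, 12, 08 and 02, 1 in each group, are the 4 highest in 34 of the 62 rows, while *Rsph3a*, *Rsph3b*, *Cfap97* and *Tekt3* vary by little.

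Of the 62 genes, 34 (54.8%) had exactly these as their 4 highest arrays, and a further 12 shared 3 of them. Among all transcript clusters 3.7% had them. The arrays were picked by the median of the same genes, so that the count describes how general the pattern was among them and is no test. The range over the 16 arrays was above 1 in 54 genes, above 2 in 37 and above 4 in 14, with a median of 2.42. How many of all clusters ranged as widely was not counted. These 4 arrays are not a group of the study, and leaving them out, as is done in the comparisons, was chosen after seeing the data.

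The heavy chains of the outer dynein arm, the motors themselves, differed among each other. *Dnah11* stood at 5.66, 7.98, 5.34 and 5.14 in UN-RG-TU, 5.65, 5.05, 5.23 and 7.67 in UN-RG-Veh, 4.94, 5.06, 5.48 and 9.08 in NN-TU, and 5.16, 9.46, 4.97 and 5.45 in NN-Veh. *Dnah5*, its partner in the arms of airway cilia, followed at a range of 3.54, with 6.73 on UN-RG-TU 14, 6.78 on UN-RG-Veh 12, 7.08 on NN-TU 08, 8.01 on NN-Veh 02 and 4.47 to 5.19 on the other arrays. Both had the same 4 highest arrays.

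*Dnah8* and *Dnah17*, which are known as the outer arm heavy chains of the sperm flagellum, did not share this pattern. *Dnah8* stood at 5.25, 5.23, 5.64 and 5.17 in UN-RG-TU, 4.82, 4.56, 5.05 and 5.15 in UN-RG-Veh, 5.08, 5.43, 5.77 and 6.51 in NN-TU, and 5.18, 5.60, 6.79 and 5.07 in NN-Veh. Its highest array was NN-Veh 03, followed by NN-TU 08. *Dnah17* was among the 5 genes with the narrowest range, at 4.19 to 4.82, below the antigenomic median on all arrays. *Dnah9*, the outer arm chain of the distal cilium, reached 6.07 on NN-TU 08 and 5.74 on NN-Veh 02, with at most 4.85 elsewhere.

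Of the 5 inner arm heavy chains, 3 had the same 4 highest arrays. *Dnah6* was the widest, at 4.91, 8.18, 5.10 and 4.81 in UN-RG-TU, 4.61, 4.75, 4.89 and 7.81 in UN-RG-Veh, 4.64, 4.99, 4.86 and 9.03 in NN-TU, and 4.63, 8.99, 4.98 and 4.67 in NN-Veh. All 4 high arrays stood above the antigenomic median and no other did. *Dnah10* had the same 4 highest arrays, in another order, at 3.44 to 5.61, and stayed below the antigenomic median throughout. *Dnah2* was even, at 6.24 to 7.02. *Dynlrb2*, a roadblock-type dynein light chain that is abundant in ciliated tissues, had the widest range of the intermediate and light chains, 5.43. Its levels were 5.31, 8.46, 5.14 and 5.08 in UN-RG-TU, 4.87, 5.40, 5.02 and 7.23 in UN-RG-Veh, 5.02, 5.38, 5.01 and 10.07 in NN-TU, and 5.09, 10.30, 5.55 and 5.69 in NN-Veh. *Dnaic1* and *Dnaic2*, intermediate chains of the outer arm, spanned 1.66 and 1.39 and did not reach the antigenomic median on any array.

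Of the 7 radial spoke genes 3 had the same 4 highest arrays. *Rsph1*, a head protein like *Rsph4a*, stood at 5.61 on UN-RG-TU 14, 5.52 on UN-RG-Veh 12, 6.93 on NN-TU 08 and 7.08 on NN-Veh 02, and at 3.93 to 5.12 elsewhere. *Rsph3a* and *Rsph3b*, paralogs that encode the stalk protein, were above the antigenomic median on all 16 arrays and did not follow the 4 arrays, with ranges of 1.05 and 0.46. *Rsph6a*, a paralog of *Rsph4a* known from the sperm flagellum, was flat at 3.77 to 4.53. Cross-hybridization between such paralogs was not tested.

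Of the 4 genes of the links and the ruler 3 had the same 4 highest arrays, and the fourth, *Drc1*, spanned 1.297. *Drc7*, a component of the nexin-dynein regulatory complex, stood at 3.58, 5.37, 4.03 and 3.30 in UN-RG-TU, 3.42, 3.45, 3.35 and 4.72 in UN-RG-Veh, 3.12, 3.40, 3.03 and 6.63 in NN-TU, and 3.33, 7.30, 3.25 and 3.27 in NN-Veh. *Drc3* of the same complex spanned 4.35 and *Ccdc39*, part of the molecular ruler that spaces the arms, 4.20. In *Ccdc39* the 4 arrays stood at 8.34 (UN-RG-TU 14), 8.39 (UN-RG-Veh 12), 9.48 (NN-TU 08) and 10.13 (NN-Veh 02), with NN-Veh 03 next at 7.41.

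All 5 genes of the central apparatus ranged over more than 2, from 2.41 (*Cfap221*) to 5.06 (*Hydin*), and 4 of them had the same 4 highest arrays. *Hydin*, a giant protein of the central pair whose loss causes hydrocephalus in mice, stood at 5.33, 8.05, 4.73 and 5.18 in UN-RG-TU, 4.73, 5.40, 5.22 and 7.80 in UN-RG-Veh, 5.03, 5.24, 4.93 and 9.79 in NN-TU, and 4.97, 9.49, 5.32 and 5.32 in NN-Veh. *Cfap69* reached 7.06 on UN-RG-TU 14, 6.15 on UN-RG-Veh 12, 7.31 on NN-TU 08 and 8.39 on NN-Veh 02, against 3.68 to 4.50 on the other arrays.

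*Enkur*, a protein inside the doublet microtubules, stood at 6.21, 9.34, 6.13 and 6.24 in UN-RG-TU, 6.11, 5.85, 6.13 and 9.38 in UN-RG-Veh, 5.94, 5.92, 6.23 and 10.73 in NN-TU, and 5.94, 10.82, 6.55 and 6.91 in NN-Veh. *Cfap53*, another luminal protein, spanned 4.29 with the same 4 arrays on top. Of the tektins, filament proteins of the doublet wall, *Tekt1* spanned 3.68, *Tekt2* 1.44, *Tekt4* 1.18 and *Tekt3* 0.47. The values of *Tekt1* outside the 4 arrays are given by group. They were 5.46, 6.65 and 6.97 in UN-RG-TU (13, 15 and 16) and 7.24, 7.74 and 7.01 in UN-RG-Veh (09, 10 and 11). In NN-TU they were 5.75, 5.04 and 5.92 (05, 06 and 07), and in NN-Veh 6.59, 7.16 and 6.85 (01, 03 and 04). Among these arrays every TU value lay below every vehicle value of its nutritional background. With all arrays the groups overlapped, since *Tekt1* stood at 7.37 on UN-RG-TU 14 and at 8.62 on NN-TU 08, within the vehicle ranges. On the same 12 arrays *Rsph3a* separated in the other direction, with every TU value above every vehicle value of its background. It stood at 10.38 to 11.22 in UN-RG-TU against 10.18 to 10.33 in UN-RG-Veh. In NN-TU it stood at 10.74 to 10.98 against 10.34 to 10.44 in NN-Veh. How many other genes separate in either direction was not counted.

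*Cfap43*, which is needed for normal cilia and sperm tails in mice, had the second widest range of the 62 genes, 6.00, with 10.75 on UN-RG-TU 14, 10.15 on UN-RG-Veh 12, 12.33 on NN-TU 08, 12.48 on NN-Veh 02 and 6.48 to 7.69 on the others. *Cfap126* (Flattop) and *Cfap44* were measured above the antigenomic median on all arrays and still followed the 4 arrays, up to 12.60 and 11.32 on NN-Veh 02. *Cfap20*, a protein of motile and non-motile cilia, was the single gene above the 95th percentile of the antigenomic controls on all 16 arrays, at 10.58, 11.55, 11.40 and 10.98 in UN-RG-TU, 11.03, 10.70, 10.59 and 11.46 in UN-RG-Veh, 11.06, 11.08, 10.86 and 11.73 in NN-TU, and 10.75, 11.93, 11.00 and 11.26 in NN-Veh. It had the same 4 highest arrays at a range of 1.35. *Cfap36*, at 9.58 to 10.87, did not. Above the antigenomic median on all arrays were 9 genes, and on no array 16.

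**Figure D3:**
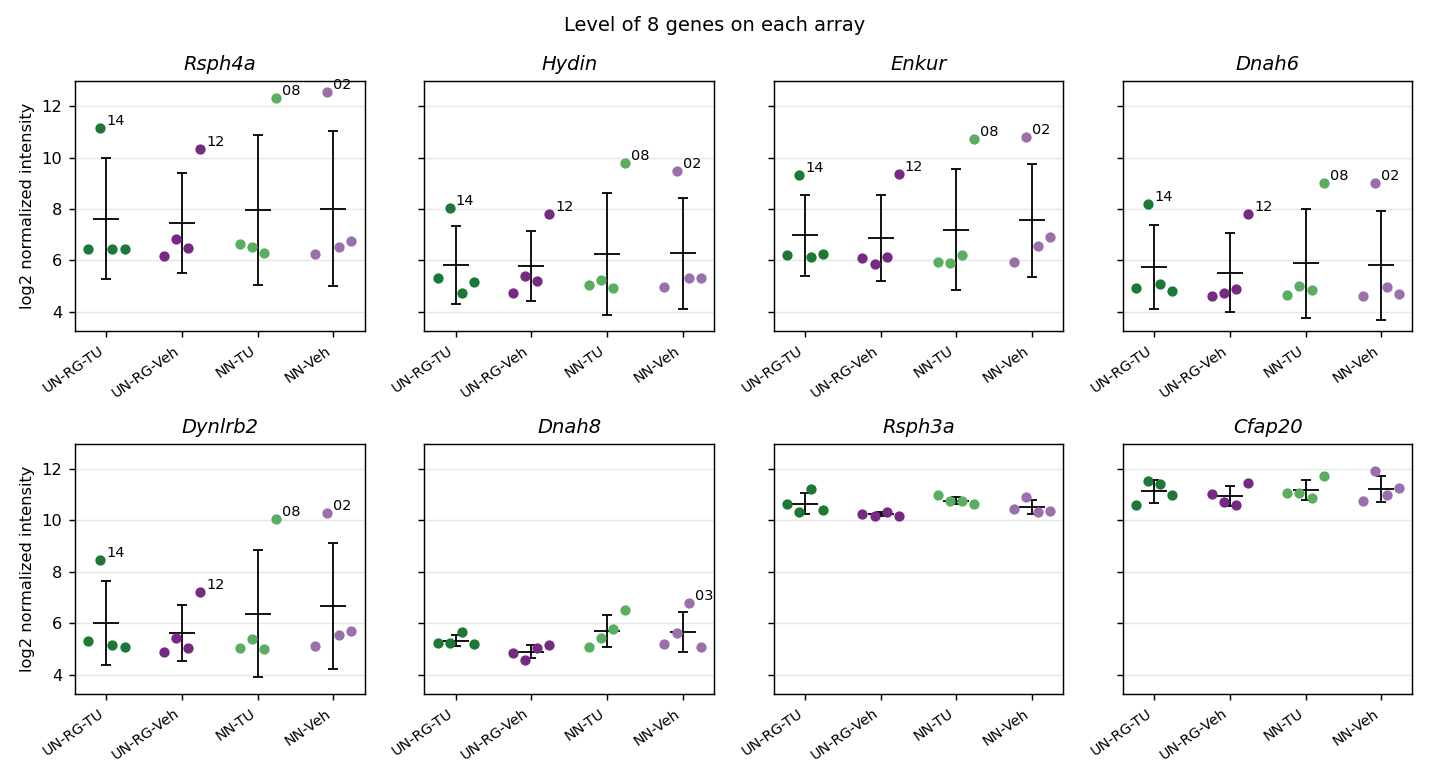
Level of 8 genes on each array (points, log2 normalized intensity), with the mean and SD of the 4 arrays of each group (bars). A number marks an array more than 1 above the next of its group. *Rsph4a*, *Hydin*, *Enkur*, *Dnah6* and *Dynlrb2* show arrays 14, 12, 08 and 02, *Dnah8* array 03, and *Rsph3a* and *Cfap20* none.

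The order of the 4 arrays is given for the 37 genes with a range over 2, a range that was mostly set by NN-Veh 02 or NN-TU 08, so that the choice of genes favours these arrays. NN-Veh 02 was the highest, NN-TU 08 the next, UN-RG-TU 14 the third and UN-RG-Veh 12 the fourth in 20, and UN-RG-TU 14 and UN-RG-Veh 12 changed places in 10 more. Measured on the linear scale as the excess over the median of its own group, NN-TU 08 carried a median of 0.807 of the excess on NN-Veh 02 (quartiles 0.642 and 0.960), UN-RG-TU 14 0.312 (0.230 and 0.372) and UN-RG-Veh 12 0.239 (0.145 and 0.351). With 1 such array per group, this order cannot be set against a spread between pups.

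Genes that the symbol rule did not cover showed which other transcripts followed. Of 26 further axoneme proteins, 15 (57.7%) had the same 4 highest arrays, with *Spef2*, a central apparatus protein, at 7.84 on UN-RG-TU 14, 7.59 on UN-RG-Veh 12, 8.96 on NN-TU 08 and 9.10 on NN-Veh 02 and at most 5.12 elsewhere. Of 15 assembly and docking factors of the dynein arms 5 did, *Zmynd10* and *Ttc25* among them, and of 27 genes of intraflagellar transport 10, with smaller ranges, such as 2.47 for *Dync2h1*, the motor of retrograde transport. Of 19 regulators of multiciliogenesis 3 did. *Myb* stood at 9.01 on UN-RG-TU 14, 8.46 on UN-RG-Veh 12, 9.87 on NN-TU 08, 10.73 on NN-Veh 02 and 5.35 to 6.14 elsewhere. *Gmnc*, an early switch of the multiciliated fate, stood at 6.94, 5.76, 7.01 and 7.40 on the same arrays and at most at 4.36 elsewhere, and *Rfx3*, an RFX factor, at 8.16, 7.75, 8.96 and 8.64 with at most 7.29 elsewhere. The dynein of the cytoplasm, which carries cargo in all cells, did not follow: of 20 genes of cytoplasmic dynein 1 and dynactin 0 had these 4 highest arrays, and their median level was 12.98 to 13.33 on all arrays.

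Marker lists of other cell types were set beside this. These lists and the gene lists before them were chosen with earlier results of these data known, so that their shares are no test. Of 27 markers of ciliated cells outside the symbol rule 20 (74.1%) had the same 4 highest arrays, such as *Sntn*, sentan of the ciliary tip, at 9.47 on UN-RG-TU 14, 8.93 on UN-RG-Veh 12, 10.34 on NN-TU 08 and 10.68 on NN-Veh 02, against 4.90 to 5.91 elsewhere. Of 13 genes of the non-ciliated epithelium of the efferent ducts 10 did, and the median of the list reached 9.47 in UN-RG-TU, 8.79 in UN-RG-Veh, 9.87 in NN-TU and 10.48 in NN-Veh on these arrays. *Adgrg2*, an adhesion receptor of that epithelium, stood at 14.05 on UN-RG-TU 14, 13.48 on UN-RG-Veh 12, 14.55 on NN-TU 08 and 14.85 on NN-Veh 02 and at most at 10.76 elsewhere, and *Lrp2*, megalin, at 11.43, 10.25, 12.04 and 12.60 with at most 7.15 elsewhere. Of 12 general epithelial genes 8 followed, *Epcam* and *Cdh1* among them. Of 20 genes of epididymal principal cells 1 did, *Cuzd1*, while *Lcn8*, a lipocalin of the epididymal head, stayed at 5.33 to 7.11, and the median of the list was 4.61 to 5.10 on all arrays. Of the markers of mesothelium, adipocytes, macrophages, stromal progenitors and endothelium 0 had the same 4 highest arrays. The part of any of these cell types in the levels of the cilia genes was not tested.

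Germ cell transcripts had another order of arrays, which overlapped in part with that of the cilia genes. The median of their list was highest on NN-Veh 03 (6.26) and NN-TU 08 (6.23), followed by NN-Veh 02 (5.68), and stood at 5.22 on UN-RG-Veh 12. By the log2 of the summed intensity the order was another. The sum was highest on UN-RG-Veh 12 (13.96), followed by UN-RG-Veh 09 (13.48) and NN-Veh 03 (13.44), and was 13.16 on NN-TU 08. *Prm2*, a protamine of sperm chromatin, stood at 6.12, 9.70, 6.45 and 7.17 in UN-RG-TU, 5.84, 6.04, 6.10 and 6.22 in UN-RG-Veh, 6.84, 6.13, 5.43 and 11.56 in NN-TU, and 6.17, 7.98, 11.71 and 6.98 in NN-Veh. It was highest on NN-Veh 03, where 1 of the 62 genes stood more than 1 above its group, and stood at 6.22 on UN-RG-Veh 12, where 26 did. Of 21 testis germ cell genes 0 had the same 4 highest arrays as the cilia genes. *Meig1*, which is required for spermatid development, is a gene of both patterns, at 8.41 on UN-RG-TU 14, 6.88 on UN-RG-Veh 12, 9.10 on NN-TU 08, 8.86 on NN-Veh 02 and 8.01 on NN-Veh 03, against 5.56 to 6.70 on the others.

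**Figure D4:**
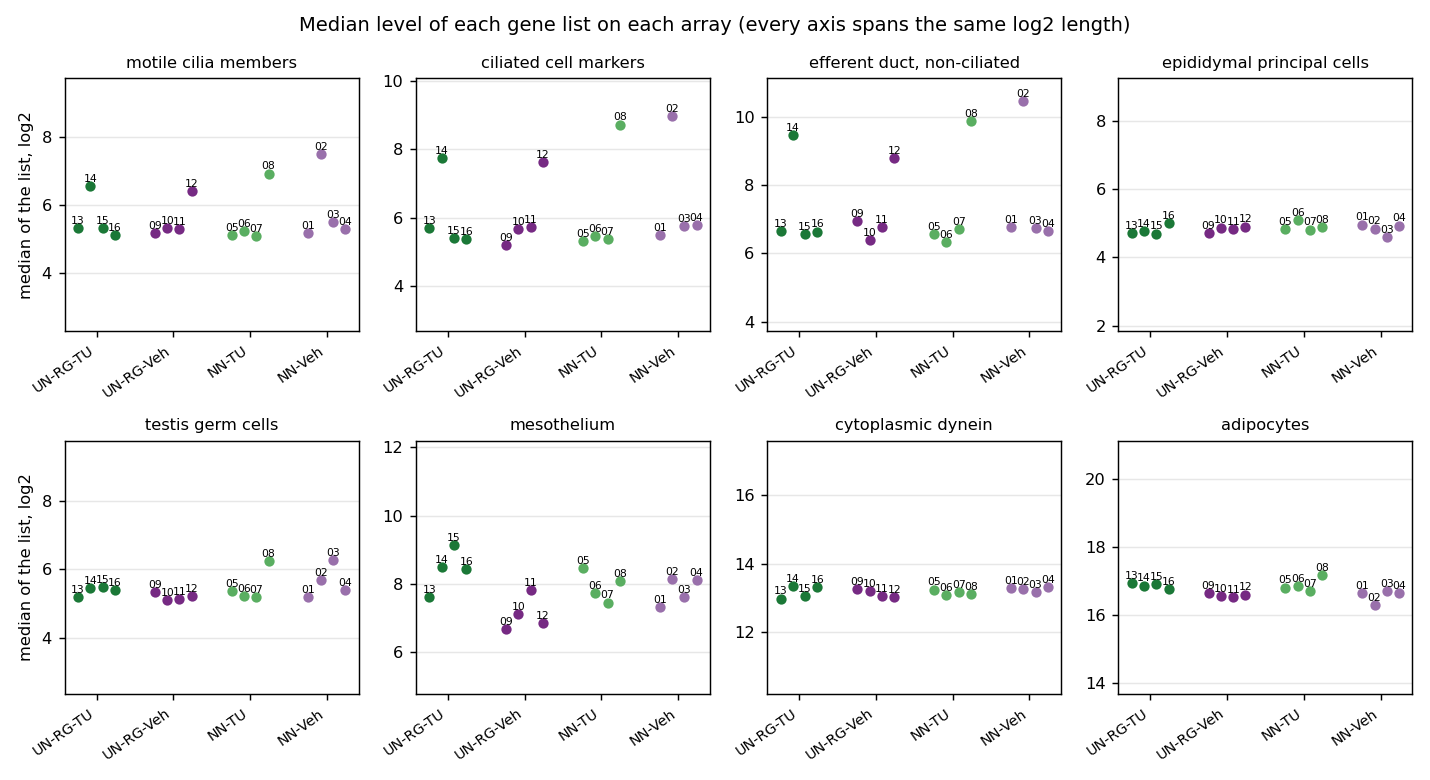
Median level (log2 normalized intensity) of 8 gene lists on each array, by group, with replicate numbers at the points. The motile cilia genes, ciliated cell markers and efferent duct epithelium are highest on 14, 12, 08 and 02, testis germ cell genes on 03 and 08, and cytoplasmic dynein, adipocyte and epididymal principal cell genes vary by less than 1.

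Of 19443 named genes outside the set 709 (3.65%) had the same 4 highest arrays. The 10 whose pattern was most like it were those with the same 4 highest arrays and the largest gap between the fourth and the fifth highest. The gap was 5.59 for *Dcdc2a*, a doublecortin-domain protein, 4.91 for *Cuzd1*, 4.82 for *Pipox*, an oxidase of peroxisomes, 4.29 for *Plet1*, 4.19 for *Prom1*, which encodes a protein of membrane protrusions, 4.05 for *Mmp7*, a matrix protease of epithelia, 3.95 for *Acsbg1*, an acyl-CoA synthetase, 3.86 for *Ppil6*, 3.57 for *Kcnk1*, a potassium channel, and 3.52 for *Sectm1b*. *Dcdc2a* stood at 13.37 on UN-RG-TU 14, 12.55 on UN-RG-Veh 12, 14.21 on NN-TU 08 and 14.51 on NN-Veh 02, and at 6.00 to 6.95 on the other 12 arrays.

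The first comparison asked what undernourishment in utero with rapid infantile growth did to these genes. In UN-RG-Veh against NN-Veh, *Dnah8* and *Tekt2* passed with a lower signal, 0 genes were higher and 60 did not pass. A gene was called at the thresholds of the study, a linear fold of 1.3 or more with an unadjusted p under 0.05. This is 3.23% of the 62 genes, against 4.45% of all clusters, 2.46% higher and 1.99% lower. By limma 0 of the 62 passed an adjusted p of 0.05, against 0.00901% of all clusters, and 2 had an unadjusted p under 0.05, against 6.15%. *Dnah8* had a log2 fold change of −0.77 (SE 0.33, unadjusted p = 0.0348, adjusted p = 0.775 by limma), with 4.56 to 5.15 in UN-RG-Veh against 5.07 to 6.79 in NN-Veh. *Tekt2* was at −0.65 (SE 0.29, adjusted p = 0.790 by limma), with 5.78, 5.26, 5.34 and 5.35 in UN-RG-Veh against 5.60, 6.53, 6.30 and 5.89 in NN-Veh. The groups overlapped in both genes. *Dnah8* was below the antigenomic median on all 16 arrays and *Tekt2* on all but NN-Veh 02. How much of these differences is background signal cannot be told. *Dnah8* no longer passed without NN-Veh 03 (−0.39), UN-RG-Veh 09 (−0.74) or UN-RG-Veh 10 (−0.65), nor by the methods' t-test. *Tekt2* no longer passed without UN-RG-Veh 10 (−0.59), 11 (−0.62) or 12 (−0.63) or NN-Veh 02 (−0.50) or 03 (−0.58). Without NN-Veh 02 *Cfap157* was called as higher, at 0.52, and the share of all clusters that passed was not counted. Beside this, 3 of 27 ciliated cell markers (*Tppp3*, *Tubb4b* and *Aldh1a1*) and 3 of 11 mesothelial markers were lower, and of 21 germ cell genes 3 were lower and 1 higher, with all arrays. The log2 of the summed intensity of the ciliated cell markers was lowest on UN-RG-Veh 12 (16.93). It was 17.19 on NN-TU 08 and 17.33 on NN-Veh 01, so that the brightest of these markers did not follow the 4 arrays. With 12 arrays 3 ciliated cell markers, 0 mesothelial markers and 5 germ cell genes were lower, and 1 germ cell gene was higher. Their part in the result was not tested.

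The log2 fold change over the 62 genes had a median of −0.27, with 49 negative and 13 positive, against a median of 0.01 over all clusters, and ran from −1.03 (*Dynlrb2*) to 0.36 (*Cfap157*). *Rsph4a* was at −0.56 (SE 1.59) and *Hydin* at −0.49 (SE 1.16). Without NN-Veh 02 the median was 0.22 and 35 of the 62 genes changed sign, and without UN-RG-Veh 12 it was −0.54. It was also over 1.5 times as large without NN-Veh 01 (−0.45) or NN-Veh 04 (−0.46). Without the 4 arrays it was −0.03, with 28 positive and 34 negative, and *Rsph4a* was at −0.01. The SE of a difference had a median of 0.48 over the 62 genes with all arrays, against 0.17 over all clusters, and of 0.20 without the 4 arrays, against 0.19. With 12 arrays 3 genes passed, *Cfap157* (0.43) and *Cfap20dc* (0.52) higher and *Dnah8* (−0.87) lower, where 4.12% of all clusters did, 1.99% higher and 2.13% lower. *Tekt2* was then at −0.48 and did not pass.

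The second comparison asked what TU did after undernourishment. In UN-RG-TU against UN-RG-Veh, *Rsph3a* was higher, 0 genes were lower and 61 did not pass. This is 1.61% of the 62 genes, against 5.91% of all clusters, 2.73% higher and 3.18% lower. *Rsph3a* was higher at a log2 fold change of 0.40 (SE 0.18, adjusted p = 0.584 by limma), with 10.63, 10.33, 11.22 and 10.38 in UN-RG-TU against 10.25, 10.18, 10.33 and 10.19 in UN-RG-Veh. The groups overlapped, UN-RG-TU 14 lying just below UN-RG-Veh 11. It no longer passed without UN-RG-TU 15 (0.21) or 13 (0.41) or UN-RG-Veh 09 (0.41), 10 (0.38) or 12 (0.39). Without UN-RG-TU 13 *Tekt2* was called as higher, at 0.61, and the share of all clusters that passed was not counted. In the fit of these groups alone and by the methods' t-test *Rsph3a* did not pass and *Dnah8* did, at 0.43. *Rsph3b*, with the next smallest p, was at 0.18 (SE 0.11). By limma 0 genes passed the adjusted p and 1 had an unadjusted p under 0.05, against 8.05% of all clusters.

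The median over the 62 genes was 0.10 in this comparison, with 46 positive. It was −0.13 without UN-RG-TU 14, where 29 genes changed sign, −0.02 without UN-RG-Veh 09, −0.03 without UN-RG-Veh 10 and 0.35 without UN-RG-Veh 12. It was 0.03 without UN-RG-Veh 11, 0.18 without UN-RG-TU 13 and 0.25 without UN-RG-TU 16. Without the 4 arrays it was 0.08, and *Rsph3a* (0.49) was higher and *Tekt1* (−0.97, adjusted p = 0.353 by limma) lower, where 8.87% of all clusters passed, 4.28% higher and 4.59% lower. Beside this, with all arrays 8 of 11 mesothelial markers, 2 of 11 adipocyte markers and 3 of 27 ciliated cell markers (*Aldh1a1*, *Morn2* and *Morn5*) were higher, and 3 of 8 macrophage markers (*C1qa*, *C1qb* and *C1qc*) were lower. With 12 arrays 9 mesothelial and 4 adipocyte markers were higher, 3 macrophage markers were lower, and of the ciliated cell markers 3 were higher and 3 lower. Of 12 general epithelial genes 4 were then higher and 1 lower, and of 13 efferent duct genes 2 were higher and 3 lower. With all arrays 0 of either list passed. Their part in the result was not tested.

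The third comparison set TU against vehicle in pups of normal nutrition. In NN-TU against NN-Veh 0 of the 62 genes passed by limma or by the methods' t-test, against 3.29% of all clusters, 1.36% higher and 1.93% lower. By limma 0 had an unadjusted p under 0.05, against 4.9% of all clusters. *Tekt2* was at −0.52 (SE 0.29) and *Cfap97* at −0.29 (SE 0.17), with an adjusted p of 1.0 each. The median over the genes was −0.12, with 48 of 62 negative. It was 0.36 without NN-Veh 02, where 41 genes changed sign, and −0.59 without NN-TU 08. It was 0.02, 0.03 and 0.05 without NN-TU 05, 06 and 07, and −0.33, −0.26 and −0.32 without NN-Veh 01, 03 and 04. Without NN-TU 08, 4 genes were lower, *Tekt1* (−1.76), *Tekt2* (−0.71), *Tekt4* (−0.48) and *Cfap97* (−0.41). Other arrays left out gave other calls, *Tekt2* (−0.68) lower without NN-Veh 01, *Cfap97d1* (0.49) higher without NN-TU 05 and *Rsph3a* (0.39) higher without NN-Veh 02. The share of all clusters that passed in these fits was not counted. Without the 4 arrays *Rsph3a* (0.45) was higher and *Tekt1* (−1.30, SE 0.34, adjusted p = 0.999 by limma) and *Cfap57* (−0.40) lower, where 3.51% of all clusters passed, 1.39% higher and 2.12% lower. *Tekt1* was at −0.998 (SE 0.63) with all arrays and did not pass. *Tekt4* and *Cfap57* were below the antigenomic median on all arrays. Beside this, the same 3 of 8 macrophage markers were lower with all arrays, 2 of 11 adipocyte markers were higher, and 1 of 27 ciliated cell markers was lower, against 5 without the 4 arrays. Their part in the result was not tested.

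In UN-RG-TU against NN-TU, which shares its arrays with both TU comparisons, 0 of the 62 genes passed by limma or the methods' t-test, against 1.83% of all clusters, 1.16% higher and 0.675% lower. By limma 0 had an unadjusted p under 0.05, against 3.06% of all clusters. *Dnah8* was at −0.38 (SE 0.33) and *Tekt3* at 0.12 (SE 0.11), with an adjusted p of 1.0 each. The median was −0.08. It was −0.35 without UN-RG-TU 14, 0.06 without UN-RG-TU 13 or 16 and 0.001 without UN-RG-TU 15. It was 0.41 without NN-TU 08, where *Tekt1* was higher at 1.05, and −0.19, −0.20 and −0.18 without NN-TU 05, 06 and 07. Without the 4 arrays it was 0.11, and *Tekt1* (0.79), *Cfap61* (0.51) and *Drc7* (0.45) were higher, where 4.09% of all clusters passed, 2.71% higher and 1.38% lower. The share of all clusters that passed without NN-TU 08 alone was not counted.

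The interaction asked whether the TU effect differed between UN-RG and NN pups. *Tekt2* was higher at 0.92 (SE 0.41, adjusted p = 1.0 by limma), and 0 genes were lower, against 3% of all clusters, 1.36% higher and 1.64% lower. By limma 1 gene had an unadjusted p under 0.05, against 3.16% of all clusters. The TU effect on *Tekt2* was 0.40 in UN-RG pups and −0.52 in NN pups, and neither passed. Its levels were 5.19, 6.36, 6.22 and 5.56 in UN-RG-TU and 5.91, 5.11, 5.10 and 6.15 in NN-TU, and NN-Veh 02 was the single array above the antigenomic median. It no longer passed without UN-RG-TU 14 (0.74) or 15 (0.79), UN-RG-Veh 10 (0.86), 11 (0.89) or 12 (0.89), NN-TU 06 (0.77) or 07 (0.76) or NN-Veh 02 (0.77) or 03 (0.84). Without the 4 arrays it was at 0.76 and 0 genes passed, against 3.54% of all clusters, 2.03% higher and 1.52% lower. *Tekt3* was at 0.26 (SE 0.15). Beside this, 4 of 11 mesothelial markers passed as higher with all arrays (list median 1.31) and 1 without the 4 arrays (0.97), and of the ciliated cell markers 1 and 2. Their part in the result was not tested. The median over the 62 genes was 0.20, with 51 positive, against 0.01 over all clusters. It was −0.24 without NN-Veh 02, −0.02 without UN-RG-TU 14, 0.65 without NN-TU 08 and 0.15 without the 4 arrays.

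**Figure D5:**
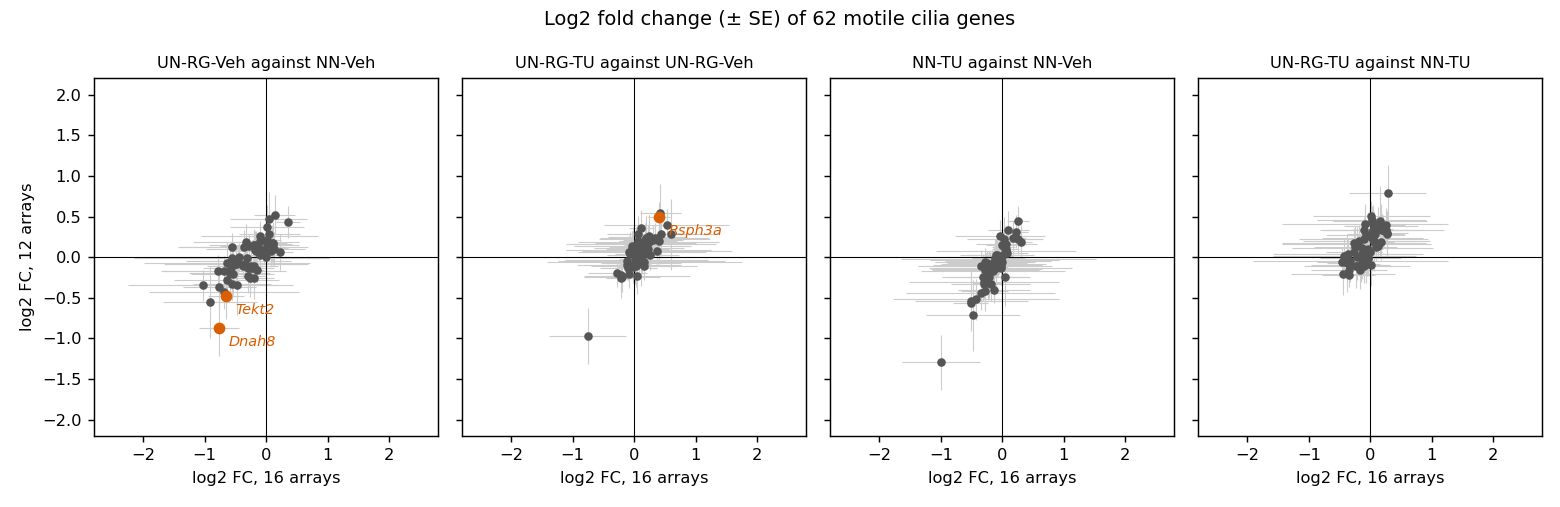
Log2 fold change of the 62 genes in 4 comparisons, with all 16 arrays (x axis) and with the 12 arrays that remain without UN-RG-TU 14, UN-RG-Veh 12, NN-TU 08 and NN-Veh 02 (y axis). Lines are SE, and orange points with names passed an unadjusted p of 0.05 and a fold of 1.3 with all arrays. The SE had a median of 0.48 with 16 arrays (horizontal lines) and 0.20 with 12 (vertical lines). In some genes, *Dnah8* and *Rsph3a* among them, it was larger with 12 arrays.

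Of the lists beside the set, the 26 further axoneme proteins had 0 genes past the thresholds in each of the 5 comparisons with all arrays, as had the 15 assembly and docking factors. Of the 19 regulators of multiciliogenesis, *Mcidas* (0.45) was higher and *Rfx2* (−0.43) lower in UN-RG-Veh against NN-Veh, *Jazf1* (0.55) was higher in UN-RG-TU against UN-RG-Veh, *Tfdp1* (−0.39) lower with TU in NN pups, and *Rfx2* (0.58) passed in the interaction. Of the 27 genes of intraflagellar transport *Ift57* (0.70) was higher in UN-RG-TU against UN-RG-Veh. Of the 20 genes of cytoplasmic dynein and dynactin *Dctn4* was lower in UN-RG-Veh against NN-Veh (−0.44) and in NN-TU against NN-Veh (−0.41), both against the same NN-Veh arrays, and passed in the interaction (0.54). These counts stand against 1.83% to 5.91% of all clusters past the thresholds in the 5 comparisons. No gene of these lists passed an adjusted p of 0.05.

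The lists had other counts without the 4 arrays, against 3.51% to 8.87% of all clusters. Of the axoneme proteins 1 was higher in UN-RG-Veh against NN-Veh, and 1 was higher and 1 lower in UN-RG-TU against UN-RG-Veh. Of the assembly and docking factors 1 was lower in UN-RG-Veh against NN-Veh and 1 in NN-TU against NN-Veh, and 1 was higher and 1 lower in UN-RG-TU against UN-RG-Veh and in the interaction. Of the genes of intraflagellar transport 3 were higher and 1 lower in UN-RG-TU against UN-RG-Veh, and 2 higher and 1 lower in NN-TU against NN-Veh.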

How the data were processed

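RNA of epididymal adipose tissue was measured on Clariom S mouse arrays, 1 per pup. The deposited intensities had been normalized by the authors and were linear, with 1 value per transcript cluster. Expression Console and Transcriptome Analysis Console were named for this, without a version or normalization method in the sources used here. The design had assumed log2 values, so log2 was taken first. Of 22520 lines 314 were controls, and no filter was applied to the other 22206. Duplicate arrays were looked for, with 0 found, and arrays of a group correlated at 0.977 to 0.995. The labels give no batch. Gene symbols came from the platform annotation (19572 clusters), and all 62 symbols of the set are current in RefSeq.

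Group means were fitted with limma 3.58.1 (R 4.3.3, eBayes), with Benjamini-Hochberg adjustment over all clusters. The steps were tested on simulated data. Genes were named by a rule: in each role the 2 with the widest range, the 5 with the highest mean and the 5 with the narrowest range, the 2 with the smallest p in each comparison, *Dynlrb2*, 10 similar genes, and the 3 widest of each list. *Cfap43*, *Tekt1*, *Meig1* and others outside it were picked with their values known. The genes and lists were chosen with earlier results of these data known. Alternatives were a filter on dim clusters, 2 scalings, 1 cluster per gene, fits of 2 groups, the methods' t-test, an intensity trend with a robust prior, each array left out, and, after seeing the data, 4 arrays left out together. Plots used Python 3.11.15 and matplotlib 3.10.9.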

Additional observations from a re-analysis of the deposited data

Results flagged for a closer look

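Within a group of 4 arrays, a value was marked where the gap of the highest or lowest array to the next, as a share of the range of the group, was above Dixon's 95% critical value. Chance marks about 1 in 20 groups. For the median over the 62 genes the share was 0.851 in UN-RG-TU (array 14), 0.883 in UN-RG-Veh (12), 0.917 in NN-TU (08) and 0.866 in NN-Veh (02), the highest array in each. Among the named genes array 14 was marked in UN-RG-TU for *Cfap69* (0.917), *Dynlrb2* (0.933), *Dnah6* (0.914), *Rsph4a* (0.993) and *Enkur* (0.967), and array 15 for *Dnah8* (0.847). Array 12 was marked in UN-RG-Veh for *Cfap69* (0.908), *Dnah6* (0.911), *Drc7* (0.927), *Rsph4a* (0.842), *Rsph1* (0.873) and *Enkur* (0.919), and as the lowest for *Rsph6a* (0.908).

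In NN-TU array 08 was marked for *Hydin* (0.936), *Cfap69* (0.890), *Dynlrb2* (0.926), *Dnah6* (0.921), *Dnah10* (0.919), *Drc3* (0.898), *Drc7* (0.897), *Dnah11* (0.870), *Dnah5* (0.954), *Rsph4a* (0.938), *Rsph1* (0.985), *Enkur* (0.935), *Cfap53* (0.884), *Cfap126* (0.936) and *Cfap44* (0.931). In NN-Veh array 02 was marked for *Hydin* (0.921), *Cfap69* (0.847), *Dynlrb2* (0.885), *Dnah6* (0.920), *Dnah10* (0.883), *Drc3* (0.941), *Drc7* (0.979), *Dnah11* (0.894), *Dnah5* (0.941), *Rsph4a* (0.922) and *Cfap44* (0.949). Over all 62 genes array 14 was marked as the highest in 9, array 12 in 12, array 08 in 29 and array 02 in 23. Arrays 15 and 11 were marked as the highest in 1 gene each. Arrays 14, 09, 12, 05 and 04 were marked as the lowest in 1 gene each. The share of all clusters marked in this way was not counted. The interaction of *Tekt2*, 0.92, was marked because the TU effect differed between UN-RG and NN pups at an unadjusted p under 0.05. It did not pass the adjustment.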

How the results depend on the processing

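Counts of genes past the thresholds were small, and several settings moved them. In UN-RG-Veh against NN-Veh, 2 with all arrays, the filter on dim clusters gave 0 and the methods' t-test 1. The filter gave 0 in the interaction, since it kept 12017 clusters and 20 of the 62 genes, and neither *Dnah8* nor *Tekt2*. Without the 4 arrays the counts were 2 for UN-RG-TU against UN-RG-Veh, 3 for NN-TU against NN-Veh, 3 for UN-RG-TU against NN-TU and 0 for the interaction. With single arrays left out the counts ran from 0 to 2 in UN-RG-Veh against NN-Veh, 0 to 1 in UN-RG-TU against UN-RG-Veh, 0 to 4 in NN-TU against NN-Veh, 0 to 1 in UN-RG-TU against NN-TU and 0 to 1 in the interaction. The median log2 fold change over the genes ran from −0.54 to 0.22, −0.13 to 0.35, −0.59 to 0.36, −0.35 to 0.41 and −0.24 to 0.65 in the same order. The cause of these moves was not tested. Scaling, 1 cluster per gene and the intensity trend moved none of these counts and called the same genes. The fit of 2 groups called *Dnah8* in place of *Rsph3a* in UN-RG-TU against UN-RG-Veh, and the 4 highest arrays were the same under all 3 settings tried for them. The fit of 2 groups and the methods' t-test give no interaction. No paired analysis was possible because the replicate numbers 01 to 16 are unique and no 2 groups share one. The precision is limited by 4 arrays per group, and 16 of the 62 genes lay below the antigenomic median on every array.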
